A study of Mus musculus with 3 samples.

Results

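Mismatches, insertions and deletions in the bait of class switch junctions were described in activated mouse B cells that carry either of 2 alleles of DNA-PKcs, the kinase that works with Ku in classical non-homologous end joining. The bait is the stretch of the switch region Sμ that a sequencing read crosses before it reaches the junction. The members are all reads listed in the authors' deposited bait sheets, including lines in which no change is counted. There are 376 such reads. The authors' pools of both genotypes hold 16829 junctions, but the bait sheets cover only a part of them, so 376 is not a share of 16829. By library they are 72 lines for DNA-PKcs-/- replicate 5, 165 for DNA-PKcs PQR/PQR replicate 1, 55 for PQR/PQR replicate 2, 91 for the DNA-PKcs-/- pool and 3 for the PQR/PQR pool. The pools repeat 10 of the lines of the single libraries, 9 from DNA-PKcs-/- replicate 5 and 1 from PQR/PQR.

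The study mapped junctions by high-throughput genome-wide translocation sequencing (HTGTS), which extends a primer in 5′ Sμ across the junction into the sequence that was joined to it, the prey. The B cells were splenic CD43- cells of strain 129 mice that carry preassembled IgH and IgK loci, a feature shared by both genotypes. A culture of 4 days with 1 ng/mL of anti-CD40 and 20 ng/mL of IL-4 induced them to switch to IgG1 and IgE. In one genotype both copies of the gene are null (DNA-PKcs-/-), and in the other both carry the PQR allele (PQR/PQR). The series title names phosphorylation at the S2056 cluster of the kinase as the study's subject. Mouse age is not given in the sources used here, nor is whether PQR/PQR replicates 1 and 2 are of different mice. Wild-type cells and cells without AID are not analysed here.

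Switch regions are the targets of activation-induced cytidine deaminase (AID), which turns cytosine into uracil, preferentially in the hot spots AAC, AGC, TAC and TGC and in their reverse complements. Replication over the uracil gives C-to-T and G-to-A changes, that is, transitions at C:G pairs. Removal of the uracil leaves a site without a base, and translesion polymerases that copy past it can give transversions. Mismatch repair with polymerase η spreads changes to A:T pairs, mostly where an A follows A or T. Mutations therefore accumulate around the breaks that become class switch junctions, and the 5′ part of Sμ is among the mutated stretches. Mismatches in a sequencing read can also come from amplification or sequencing.

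The bait lies on chromosome 12 of mm9, on the minus strand, so that a read runs in the direction of IgH transcription. Bases are counted from 1 at the 5′ end of the nested primer. The primer and the first 150 bases of the bait, as read without a change in a deposited read, are shown because all positions below refer to them. Capitals in the bait mark the positions that were mismatched in 3 or more reads of DNA-PKcs-/- replicate 5 or PQR/PQR replicate 1.
Nested primer, chr12:114669237-114669257: cacacaaagactctggacctc
Sμ bait, chr12:114669108-114669257: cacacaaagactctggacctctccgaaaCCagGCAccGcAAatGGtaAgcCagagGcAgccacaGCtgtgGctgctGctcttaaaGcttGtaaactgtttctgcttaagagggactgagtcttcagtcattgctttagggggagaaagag
The primer covers bases 1 to 21, and the mismatch counts used here begin at base 22. The AflII site that was used to remove unrearranged DNA covers bases 104 to 109. No mm9 annotation was used, so the positions carry no exon or intron label.

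The sheets cover different sets of junctions, which limits what can be compared. DNA-PKcs-/- replicate 5 and PQR/PQR replicate 1 have sheets for IgH junctions, with 717 reads and 31273 bait bases and with 1559 reads and 67375 bait bases. Their reads carry the same sequencing run number, and their mean counted bait was 43.6 and 43.2 bases per read. Only these libraries were compared with a test. The sheet of PQR/PQR replicate 2 covers all its junctions (473 reads, 17378 bases) and lies in another run, that of the DNA-PKcs-/- pool covers Sε, the switch region of IgE (656 reads, 41258 bases), and that of the PQR/PQR pool covers IgH outside the S regions (40 reads, 1632 bases). With 1 library per genotype there is no replicate, so each test compares the reads of a pair of libraries and not the genotypes. Reads carry no molecular identifiers, so all 95% intervals cover counting error only.

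The authors' number of mismatches per read was checked by a direct comparison of each read with the bait sequence shared by the listed reads. In all 319 lines whose read aligns without a gap at the primer site, the numbers were equal. On the authors' junction lists, 2607 entries have no line in their bait sheet, and none of these had a mismatch. Among 51 lines of reads with a gap the numbers were equal in 45. These are sums over sheets and lists that share reads, so they exceed the number of distinct reads. For example, 122 Sε reads of DNA-PKcs-/- replicate 5 are also on the list of the pool.

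The overall frequency of mismatches differed by less than its counting error between the libraries of the 2 genotypes. In DNA-PKcs-/- replicate 5, 50 of 717 reads carried a mismatch (6.97%, 95% Wilson interval 5.33 to 9.08). In PQR/PQR replicate 1 there were 95 of 1558 reads (6.10%, 5.01 to 7.40), leaving out 1 read whose line was not used. The difference of 0.876 percentage points had an interval from -1.22 to 3.24 (Newcombe) and an adjusted p of 0.892 by Fisher's exact test (two-sided; p-values of 6 tests adjusted by Benjamini and Hochberg). Per base, 59 of 31273 bait bases were mismatched in DNA-PKcs-/- replicate 5 (0.189%, 0.146 to 0.243) and 128 of 67375 in PQR/PQR replicate 1 (0.190%, 0.160 to 0.226). This difference of -0.00132 points had an interval from -0.0568 to 0.0611 (adjusted Fisher's exact p = 1.00).

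Most mismatched reads held a single mismatch. In DNA-PKcs-/- replicate 5, 45 of the 50 reads held 1 mismatch, 4 held 2 and 1 held 6. Of the 95 in PQR/PQR replicate 1, 79 held 1, 9 held 2, 2 held 3, 2 held 4, 1 held 5 and 2 held 6. Averaged over all reads covered, the deposited sums gave 0.0823 and 0.0834 mismatches per read.

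In the deposited sums, neither the share of mismatches at C:G nor the share of transitions passed the threshold. C:G pairs carried 31 of 59 mismatches in DNA-PKcs-/- replicate 5 (52.5%, 40.0 to 64.7) and 90 of 130 in PQR/PQR replicate 1 (69.2%, 60.8 to 76.5). The difference of -16.7 percentage points had an interval from -31.2 to -1.89, with an unadjusted Fisher's exact p of 0.0335 and an adjusted p of 0.174. Transitions made up 33 of 59 mismatches (55.9%, 43.3 to 67.8) and 52 of 130 in PQR/PQR replicate 1 (40.0%, 32.0 to 48.6). That difference of 15.9 points had an interval from 0.646 to 30.3 (adjusted Fisher's exact p = 0.174). C:G bases made up 55.9% of the counted bait bases of the DNA-PKcs-/- library and 56.8% of those of PQR/PQR replicate 1.

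Whether the C:G difference passed the threshold depended on how reads with several mismatches were treated. When reads with 5 or more mismatches were left out, C:G pairs carried 27 of 53 mismatches in DNA-PKcs-/- replicate 5 and 78 of 107 in PQR/PQR replicate 1, a difference of -22.0 points (adjusted Fisher's exact p = 0.0475). In reads with a single mismatch the shares were 22 of 45 and 63 of 79 (-30.9 points, adjusted Fisher's exact p = 0.00344). In these settings the changes come from the direct comparison with the bait, with gapped reads realigned. Realignment alone gave -18.8 points and an adjusted Fisher's exact p of 0.0748. Over all settings the adjusted p ranged from 0.00344 to 0.285, and the DNA-PKcs-/- share was the lower in each.

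**Figure D1:**
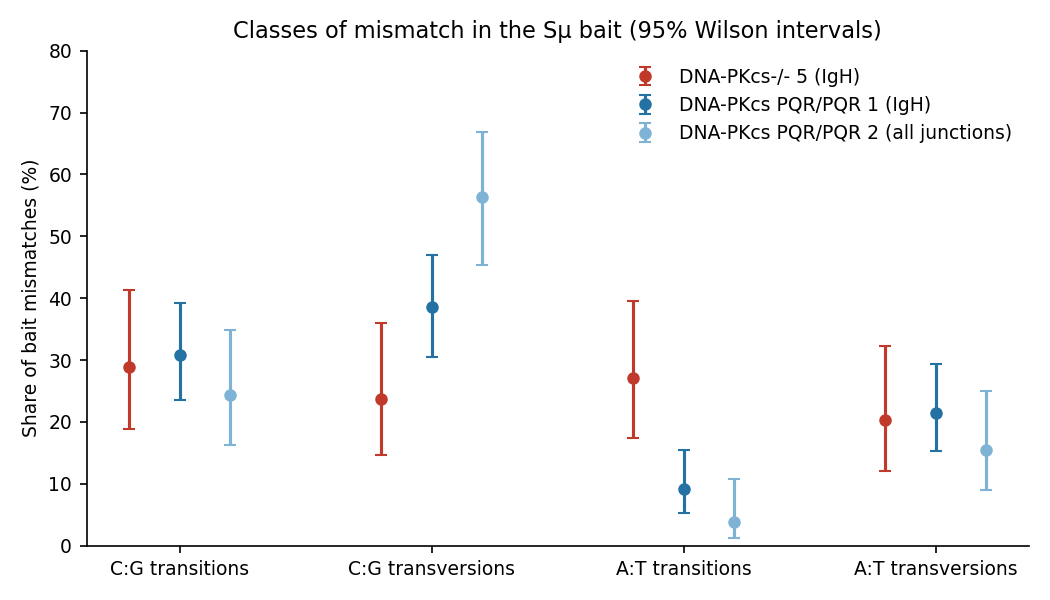
Share of bait mismatches in 4 classes (vertical axis, percent) for DNA-PKcs-/- replicate 5 and PQR/PQR replicate 1 (IgH junctions) and PQR/PQR replicate 2 (all junctions), from the deposited sums. Points are shares and bars 95% Wilson intervals. Transitions at A:T made up 27.1%, 9.23% and 3.85%, and transversions at C:G 23.7%, 38.5% and 56.4%.

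With both strands put together, C:G to T:A was the most frequent change in both compared libraries, with 17 of 59 mismatches in DNA-PKcs-/- replicate 5 (28.8%, 18.8 to 41.4) and 40 of 130 in PQR/PQR replicate 1 (30.8%, 23.5 to 39.2). A:T to G:C followed in DNA-PKcs-/- replicate 5 with 16 (27.1%, 17.4 to 39.6) and was 12 in PQR/PQR replicate 1 (9.23%, 5.36 to 15.4). C:G to A:T was 9 of 59 (15.3%) and 32 of 130 (24.6%), and C:G to G:C was 5 (8.47%) and 18 (13.8%). A:T to C:G was 9 (15.3%) and 18 (13.8%), and A:T to T:A was 3 (5.08%) and 10 (7.69%). Among mismatches at C:G, transitions were 17 of 31 (54.8%, 37.8 to 70.8) and 40 of 90 (44.4%, 34.6 to 54.7). Among those at A:T they were 16 of 28 (57.1%, 39.1 to 73.5) and 12 of 40 (18.1 to 45.4%). These 6 classes and their shares were not tested.

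The 3 most frequent changes on the read strand were A-to-G, G-to-A and A-to-C in DNA-PKcs-/- replicate 5, with 14, 11 and 7 mismatches, and G-to-A, G-to-T and A-to-C in PQR/PQR replicate 1, with 28, 20 and 15. A-to-G was mismatched at 14.9 per 10000 bait A in DNA-PKcs-/- replicate 5 (14 of 9416, 8.86 to 24.9) and at 3.97 in PQR/PQR replicate 1 (8 of 20162, 2.01 to 7.83). All 12 changes were tested, as an addition made once the spectrum was known. The difference of 10.9 per 10000 (Newcombe interval 3.76 to 21.2) reached p = 0.0282 by Fisher's exact test after adjustment over the 12. It was the only one of the 12 to pass (adjusted Fisher's exact p = 1.00 for the others). The 14 mismatches lay in 14 reads with 14 different junctions and at 8 bait positions. Of the 14 mismatches, 7 lay where the A follows A or T, and 13 were the only mismatch of their read. In Sε and Sγ1 junctions alone the numbers were 8 of 4444 and 5 of 13343 (adjusted Fisher's exact p = 0.0673).

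**Figure D2:**
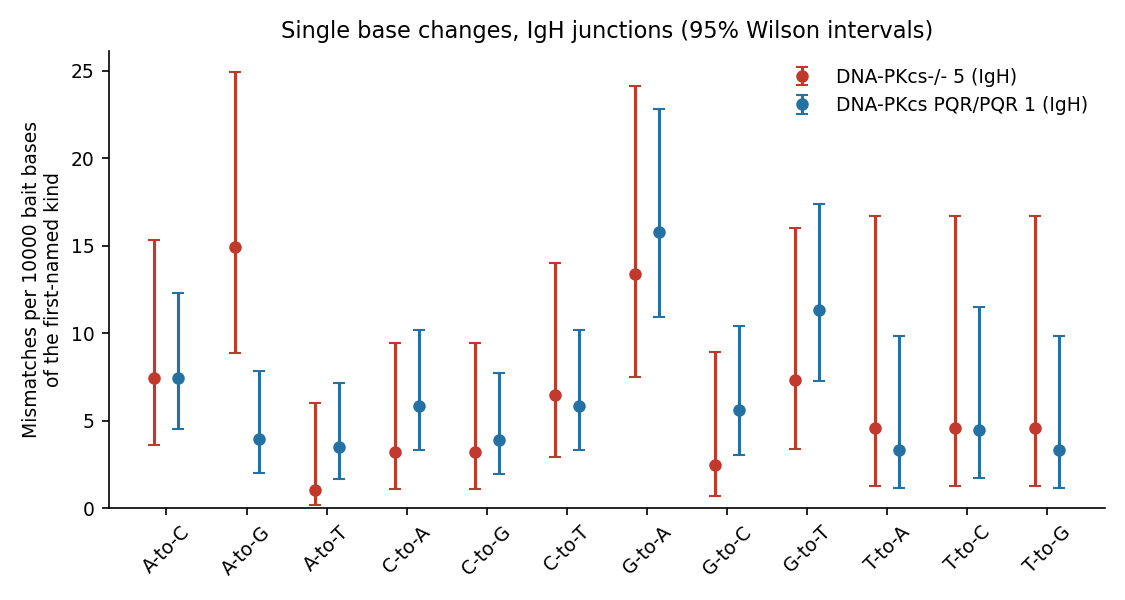
Mismatches per 10000 bait bases of the first-named kind (vertical axis) for each of the 12 base changes (horizontal axis) in DNA-PKcs-/- replicate 5 and PQR/PQR replicate 1, with 95% Wilson intervals. A-to-G stands at 14.9 and 3.97, and the intervals of the other changes overlap.

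Mismatches fell unequally on C and G of the read strand. Those of PQR/PQR replicate 1 were at 32.6 per 10000 G (58 of 17777, 25.2 to 42.2) and at 15.6 per 10000 C (32 of 20483, 11.1 to 22.0). In DNA-PKcs-/- replicate 5 they were at 23.2 per 10000 G (19 of 8179, 14.9 to 36.3) and at 12.9 per 10000 C (12 of 9318, 7.37 to 22.5), and these intervals overlap. A was mismatched at 23.4 per 10000 (15.4 to 35.4) in DNA-PKcs-/- replicate 5 and at 14.9 (10.4 to 21.2) in PQR/PQR replicate 1, and T at 13.8 and 11.2 (6 of 4360 and 10 of 8953).

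AID hot spots carried more mismatches per base than other C:G bases in both libraries. Hot spots were searched as AAC, AGC, TAC and TGC (last base counted) and as GTT, GCT, GTA and GCA (first base counted). At bait bases 22 to 150, 23 C or G lie in a hot spot and 42 do not. The rates come from ungapped reads on the authors' junction lists, which for PQR/PQR replicate 1 leave out Sμ. In DNA-PKcs-/- replicate 5, hot-spot bases were mismatched at 27.4 per 10000 (16 of 5848, 16.8 to 44.4) and other C or G at 9.11 (10 of 10981, 4.95 to 16.8). The rates of PQR/PQR replicate 1 were 40.8 (35 of 8579, 29.4 to 56.7) and 11.5 (19 of 16511, 7.37 to 18.0). The intervals of hot-spot and other C or G met at 16.8 in DNA-PKcs-/- replicate 5 and lay apart in PQR/PQR replicate 1, and the hot-spot intervals of these libraries overlap each other. The contexts were not tested. A in AA or TA and T in TT or TA, the contexts linked to polymerase η, were mismatched at 19.3 per 10000 (10.8 to 34.4) in DNA-PKcs-/- replicate 5 and at 11.8 (6.22 to 22.5) in PQR/PQR replicate 1. Other A or T were mismatched at 17.7 (10.4 to 30.3) and 9.22 (5.01 to 17.0), and in each library the intervals of the A:T contexts overlap.

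**Figure D3:**
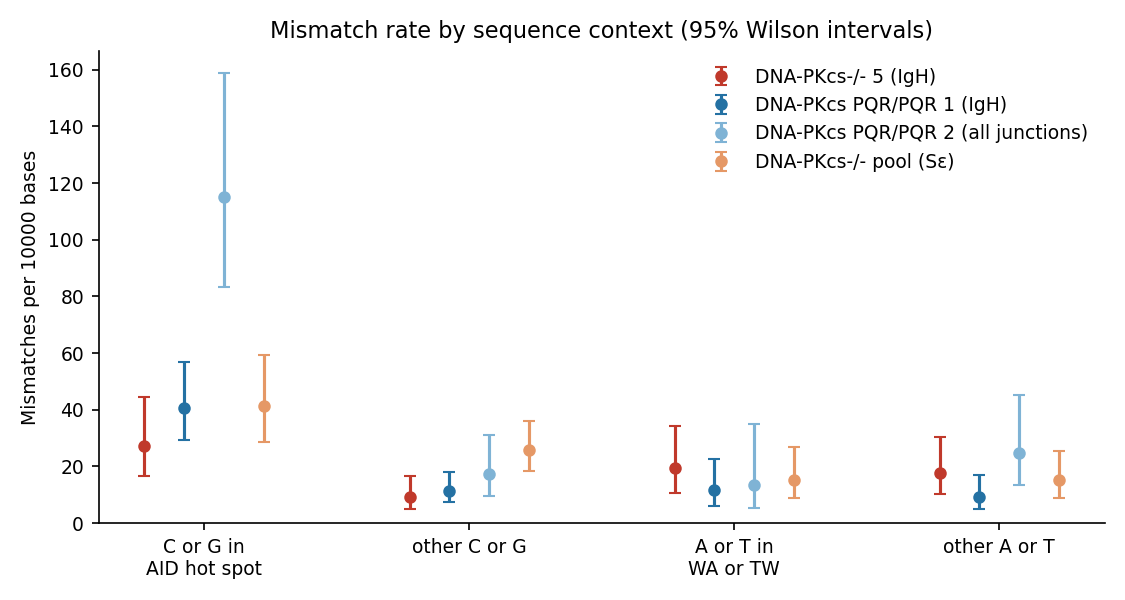
Mismatches per 10000 bases (vertical axis) in 4 sequence contexts (horizontal axis; WA is AA or TA, TW is TT or TA) for DNA-PKcs-/- replicate 5, PQR/PQR replicates 1 and 2 and the DNA-PKcs-/- pool, which cover different junctions, with 95% Wilson intervals. Hot-spot bases stand at 27.4, 40.8, 115 and 41.2, above other C or G at 9.11, 11.5, 17.4 and 25.8.

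Some bases of the bait were mismatched in several reads. The number of such positions that an even spread of the mismatches would give was not computed. It depends on the reads covered, so the numbers of positions are not compared between libraries. In DNA-PKcs-/- replicate 5, 8 positions were mismatched in 3 or more reads, at bases 29, 33, 35, 40, 41, 44, 48 and 56. The highest numbers there were 4 reads at base 41, all A41C, and 4 reads at base 33. PQR/PQR replicate 1 had 16 such positions, at bases 30, 33, 34, 35, 38, 40, 41, 45, 51, 58, 65, 66, 71, 77, 86 and 90. Base 45, the G of GTA, led with 7 reads, 4 of them G45A, and bases 33, 41 and 71 followed with 6 reads each. Of the 6 reads at base 41, 5 carried A41C. Bases 33, 35, 40 and 41 recurred in both libraries. At each of these positions every read had a different junction. Position 35 showed A35G in all 3 reads of DNA-PKcs-/- replicate 5 and A35C in 3 of 4 reads of PQR/PQR replicate 1.

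Among windows of 10 bases from base 22 to base 91, the rate of DNA-PKcs-/- replicate 5 was highest at bases 32 to 41, at 26.9 per 10000 (17 of 6328, 16.8 to 43.0), beside 9.92 (7 of 7060, 4.80 to 20.5) at bases 22 to 31. In PQR/PQR replicate 1 these windows stood at 21.5 (14.1 to 32.9) and 11.2 (6.43 to 19.6). All windows come from ungapped listed reads, which leave out Sμ junctions for PQR/PQR replicate 1 but include them for DNA-PKcs-/- replicate 5. PQR/PQR replicate 1 had a further high window at bases 62 to 71, at 35.9 per 10000 (15 of 4174, 21.8 to 59.2), between windows at 4.91 (1.67 to 14.4) and 11.9 (4.06 to 35.0). The window at bases 62 to 71 stood at 15.0 (4 of 2665, 5.84 to 38.5) in DNA-PKcs-/- replicate 5, and the intervals overlap. This window holds the word AGCT, which is a hot spot on both strands and contains the recurrent bases 65 and 66. The window also holds recurrent base 71, outside that word. AGCT occurs again around recurrent base 86, in the window at bases 82 to 91. At bases 82 to 91 PQR/PQR replicate 1 stood at 41.4 (5 of 1209, 17.7 to 96.4) and DNA-PKcs-/- replicate 5 at 7.86 (1 of 1272, 1.39 to 44.4). Beyond base 91 few reads reach, and the highest windows there were 133 per 10000 at bases 102 to 111 in PQR/PQR replicate 1 (3 of 225, 45.4 to 385) and 53.2 at bases 112 to 121 in DNA-PKcs-/- replicate 5 (1 of 188, 9.40 to 295). Of the 3 mismatches at bases 102 to 111, 2 lay in the AflII site, C104G and G109T, and an effect of the digestion was not tested.

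**Figure D4:**
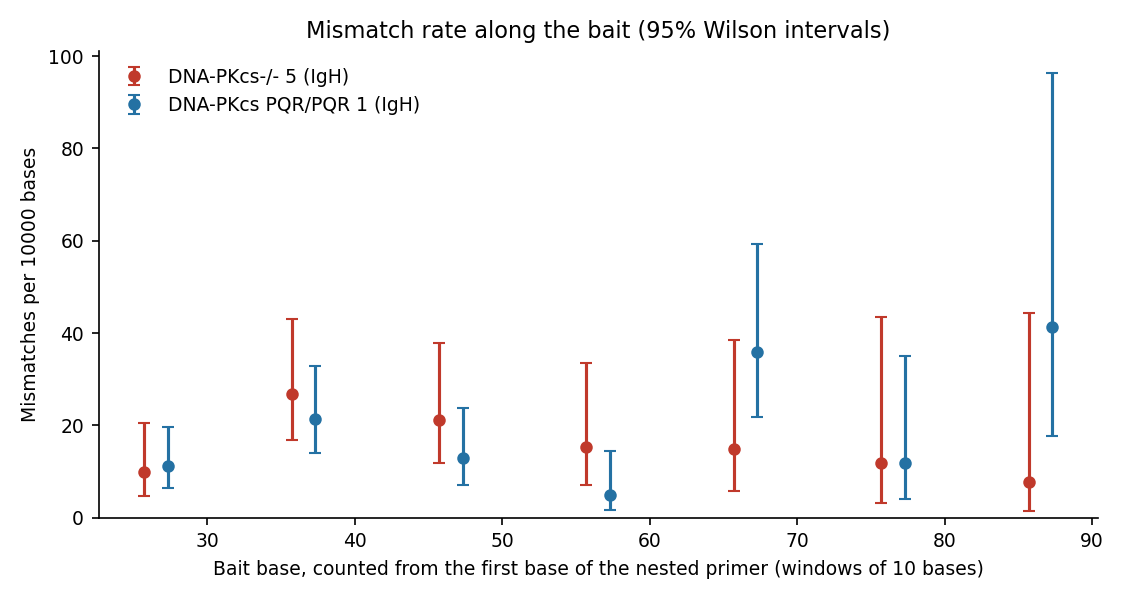
Mismatches per 10000 bases (vertical axis) in windows of 10 bases from base 22 to base 91 (horizontal axis, counted from the first base of the nested primer) in DNA-PKcs-/- replicate 5 and PQR/PQR replicate 1, with 95% Wilson intervals. Both are higher at bases 32 to 41 than at bases 22 to 31, and PQR/PQR replicate 1 stands at 35.9 at bases 62 to 71 and at 41.4 at bases 82 to 91. The reads of PQR/PQR replicate 1 leave out Sμ junctions, and those of DNA-PKcs-/- replicate 5 include them.

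Next to the junction no mismatch was listed. The last 3 bait bases held 0 mismatches in 2118 bases of DNA-PKcs-/- replicate 5, which allows up to 14.2 per 10000, and 0 in 3201 of PQR/PQR replicate 1, which allows up to 9.37. The rates by distance to the junction leave out Sμ junctions for PQR/PQR replicate 1 but include them for DNA-PKcs-/- replicate 5. The mismatch nearest to the junction had 4 matching bases after it in both libraries. With 5 to 9 bases after the mismatch the rate was 42.5 per 10000 (15 of 3530, 25.8 to 70.0) in DNA-PKcs-/- replicate 5. It was 28.1 in PQR/PQR replicate 1 (15 of 5335, 17.0 to 46.3). With 10 to 14 bases after the mismatch the rates were 9.03 (3.07 to 26.5) and 23.5 (13.4 to 41.0) in these libraries. With 15 to 19 bases they were 33.3 (18.1 to 61.1) and 23.6 (13.2 to 42.3). The bait end is the authors' alignment end, and bases beyond a terminal mismatch would lie outside it, so these rates describe aligned bait only.

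The share of mismatched reads was also taken by junction partner. In DNA-PKcs-/- replicate 5, 7 of 122 Sε reads (5.74%, 2.81 to 11.4), 16 of 211 Sγ1 reads (7.58%, 4.72 to 12.0), 25 of 287 Sμ reads (8.71%, 5.97 to 12.5) and 2 of 96 other IgH reads (2.08%, 0.573 to 7.28) held a mismatch. In PQR/PQR replicate 1 these were 49 of 789 (6.21%, 4.73 to 8.12), 17 of 270 (6.30%, 3.97 to 9.85), 28 of 468 (5.98%, 4.17 to 8.51) and 1 of 25 (4.00%, 0.710 to 19.5). The intervals of the regions overlap within each library.

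The primer itself gives a level of mismatches measured in the same reads. Outside base 7, primer bases were mismatched at 2.83 per 10000 in DNA-PKcs-/- replicate 5 (4 of 14115, 1.10 to 7.28) and at 3.28 in PQR/PQR replicate 1 (7 of 21317, 1.59 to 6.78). Beyond the primer the same ungapped reads stood at 16.7 (50 of 29882, 12.7 to 22.1) and 16.8 (73 of 43549, 13.3 to 21.1). These reads leave out Sμ junctions for PQR/PQR replicate 1 but include them for DNA-PKcs-/- replicate 5. The primer bases are copied from an oligonucleotide and are read first, so they are no measure of amplification errors in the bait. Base 7 of the primer differed, with A7T in 13 of 706 reads of DNA-PKcs-/- replicate 5 (1.84%, 1.08 to 3.12), 22 of 1066 of PQR/PQR replicate 1 (2.06%, 1.37 to 3.11) and 10 of 445 of PQR/PQR replicate 2 (2.25%, 1.23 to 4.09). In the DNA-PKcs-/- pool it was found in 2 of 625 reads (0.320%, 0.0878 to 1.16), both among the 122 reads of replicate 5, and in none of 510 reads of the run numbered 397. The sheets also hold lines with no counted change, 16 in DNA-PKcs-/- replicate 5 and 59 in PQR/PQR replicate 1. Of these lines 15 and 41 have a mismatch within the primer.

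Reads with very many mismatches, set at 5 or more, were few in the single libraries and were of different kinds. There was 1 in DNA-PKcs-/- replicate 5, with 6 of its 59 mismatches, and there were 3 in PQR/PQR replicate 1, with 17 of the 128 in its lines. When gaps were allowed in the alignment, the read of DNA-PKcs-/- replicate 5 aligned with 0 mismatches and 1 base inserted after base 54. Of the PQR/PQR replicate 1 reads, one with 6 deposited mismatches aligned with 1 mismatch, G86T, and 1 base inserted after base 90, whereas the other kept all 6 over 57 bait bases. The third, with 5 mismatches over 247 bait bases and a deposited insertion, kept its 5. A further read of PQR/PQR replicate 1 with 4 deposited mismatches had 0 when 1 base was deleted at base 29. The baits of these reads are printed because they show the difference between a shifted alignment and a cluster of changes. Capitals mark mismatched or inserted bases from base 22 on, and in the read with the deletion the bases on either side of the gap. The primer is in lower case throughout, also where the read of DNA-PKcs-/- replicate 5 carries A7T.
DNA-PKcs-/- replicate 5, 6 deposited mismatches, 1 inserted base: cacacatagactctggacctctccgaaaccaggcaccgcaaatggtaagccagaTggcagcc
PQR/PQR replicate 1, 6 deposited mismatches, 1 inserted base: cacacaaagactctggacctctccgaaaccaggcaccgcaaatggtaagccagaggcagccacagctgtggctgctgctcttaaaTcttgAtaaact
PQR/PQR replicate 1, 4 deposited mismatches, 1 deleted base: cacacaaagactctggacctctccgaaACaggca
PQR/PQR replicate 1, 6 mismatches kept: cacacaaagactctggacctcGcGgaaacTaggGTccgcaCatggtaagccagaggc
PQR/PQR replicate 2, 8 mismatches kept: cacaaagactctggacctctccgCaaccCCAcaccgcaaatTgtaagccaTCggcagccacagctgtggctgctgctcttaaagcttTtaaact
In the read that kept 6, the changes T22G, C24G, C30T, C34G, A35T and A41C were spread over bases 22 to 41. In the read that kept 8, the changes A26C, A31C, G32C, G33A, G44T, G53T, A54C and G90T were spread over bases 26 to 90. With realignment DNA-PKcs-/- replicate 5 held 53 mismatches, at most 2 in a read, and PQR/PQR replicate 1 held 119, at most 6.

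Insertions and deletions were rare. Insertions were listed in 6 of 717 reads of DNA-PKcs-/- replicate 5 (0.837%, 0.384 to 1.81) and in 15 of 1558 of PQR/PQR replicate 1 (0.963%, 0.584 to 1.58). The difference of -0.126 points had an interval from -0.893 to 0.922 (adjusted Fisher's exact p = 1.00). Deletions were listed in 2 of 717 reads (0.279%, 0.0765 to 1.01) and 2 of 1558 (0.128%, 0.0352 to 0.467), a difference of 0.151 points with an interval from -0.244 to 0.889 (adjusted Fisher's exact p = 0.892). The deletions took 3 bases (60 to 62) and 6 bases (57 to 62) in DNA-PKcs-/- replicate 5, and 13 bases (34 to 46) and 1 base (26) in PQR/PQR replicate 1. None of these reads held a mismatch as well.

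The insertions shared a place in the read rather than in the bait. In 21 of the 22 insertion reads of the 3 libraries the aligned bait was 1 base longer than the reference bait, the extra base repeated a neighbouring base, and it could be placed at the end of a stretch that the deposited sequence writes in lower case. The stretch began at read base 149, and 146 to 151 bases followed it in reads of 301 to 372 bases. Across the bait these insertions lay at bases 144 to 215. Of the listed reads whose lower-case stretch ended inside the bait, 14 of 14 had an insertion. The sources used here do not say what lower case marks. In the remaining read, of PQR/PQR replicate 1, the lower-case stretch lay beyond the bait and the aligned bait was shorter than the reference, although an insertion was deposited.

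PQR/PQR replicate 2, whose sheet covers junctions inside and outside IgH, had 53 of 473 reads with a mismatch in the deposited sums (11.2%, 8.67 to 14.4) and 78 mismatches in 17378 bases (44.9 per 10000, 36.0 to 56.0). C:G pairs carried 63 of the 78 (80.8%, 70.7 to 88.0) and transitions were 22 (28.2%, 19.4 to 39.0). G-to-T led with 34 (43.6%, 33.1 to 54.6), followed by C-to-T with 12 and G-to-C with 8. Bait G was mismatched at 110 per 10000 (49 of 4470, 83.0 to 145) and bait T in 0 of 2000 bases, which allows up to 15.0 per 10000. Of its lines 55 were used, with 61 mismatches. The emptied lines left out 11 of the 53 mismatched reads, with 17 mismatches, so the shares by junction that follow lack them. In the lines used, IgH reads held a mismatch in 23 of 349 (6.59%, 4.43 to 9.69) and reads outside IgH in 19 of 100 (12.5 to 27.8%). G-to-T was 3 of 25 mismatches in the IgH reads (12.0%) and 18 of 36 in the reads outside IgH (34.5 to 65.5%), and 16 of these 21 changes lay in a hot spot.

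PQR/PQR replicate 2 had 9 positions mismatched in 3 or more reads, at bases 29, 32, 33, 38, 40, 45, 65, 66 and 86. Of these, 7 recurred in replicate 1, which has 16 such positions. Bases 29, 33 and 40 also recurred in DNA-PKcs-/- replicate 5, and bases 29, 33 and 45 in the DNA-PKcs-/- pool. The overlap that read coverage alone would give was not computed. The changes differed, with G38T in 5 reads of replicate 2 beside G38A in 4 of replicate 1, and G45T in 5 reads beside G45A in 4. C29T and A40T were found in 5 and 4 reads of replicate 2. At each position every read had a different junction. The libraries lie in different runs and cover different junctions, so their spectra were not tested against each other.

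In the DNA-PKcs-/- pool the deposited sums for Sε were dominated by a few reads. They give 2558 mismatches in 41258 bases, 620 per 10000, in 80 of 656 reads. A:T pairs carried 80.6% of them and A-to-G alone 33.1% (846), followed by A-to-C with 409 and T-to-G with 259. Of the 91 lines, 17 held 5 or more mismatches, with 2473 of the 2557 in the lines (96.7%). The 3 highest held 984, 694 and 185.

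Of the 651 listed Sε reads of the pool, 16 have their bait aligned away from the primer site (2.46%, 1.52 to 3.95), and these hold 2452 of the mismatches. In the single libraries there were 0 of 716, 0 of 1084 and 0 of 449 such reads, which allow up to 0.419%, 0.277% and 0.668%. These are counts over all listed reads, of which 122, 789 and 144 are of Sε. The limits are therefore not for Sε alone, and no comparison with the pool was made. In 13 of the 16 the aligned segment lies in Sγ1, from 114570826 to 114576499, and in 3 it lies in Sμ, from 114666283 to 114667635. The number of bases equal to the Sμ bait from the first bait base on was 8 to 157 in the 13 (median 56.0) and 50 in each of the 3. In the 9 Sγ1 reads with more than 100 listed bait bases, 60.7% to 73.9% of the bases were counted as mismatched. In the other 4 Sγ1 reads, with 26 to 32 listed bases, 2 to 8 were. The 16 reads have 12 distinct prey ends and all carry run number 397. A read with 8 deposited mismatches is printed to show the arrangement. Capitals mark the segment listed as bait, chr12:114575419-114575450. The bases before it are those of the Sμ bait, and those after it belong to the prey in Sε, chr12:114514833-114514990, of which the first bases are shown.
DNA-PKcs-/- pool read: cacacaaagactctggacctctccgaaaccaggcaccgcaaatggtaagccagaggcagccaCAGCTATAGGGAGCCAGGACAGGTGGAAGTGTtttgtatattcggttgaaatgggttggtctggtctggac
The bait continues to match for 67 bases, which is 5 bases into the capitals.

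**Figure D5:**
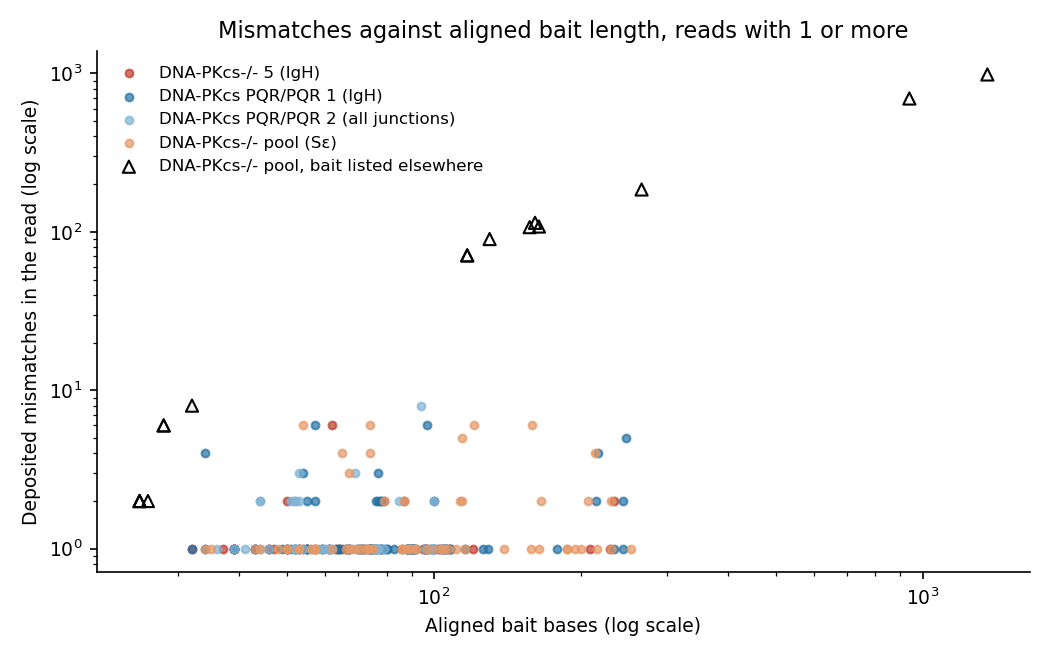
Deposited mismatches per read (vertical axis, log scale) against aligned bait bases (horizontal axis, log scale) for reads with 1 or more mismatches. Dots are reads aligned at the primer site, which hold at most 8 mismatches, and triangles are the 16 reads of the DNA-PKcs-/- pool aligned elsewhere, which hold 2 to 984.

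Without these 16 reads, 63 of 635 Sε reads of the pool held a mismatch (9.92%, 7.83 to 12.5), with 105 mismatches in 37709 bases (27.8 per 10000, 23.0 to 33.7). Realigned with gaps these were 92, of which 63 lay at C:G (68.5%, 58.4 to 77.1) and 44 were transitions (47.8%, 37.9 to 57.9). C-to-T led with 22 (23.9%), followed by G-to-T with 14 and G-to-A with 13, and A-to-G made up 5. Positions mismatched in 3 or more reads were bases 28, 29, 33, 39, 44, 45 and 69. C39T led with 9 reads of 9 different junctions, and C29T was found in 3. Of the 5 reads at the primer site with 5 or more mismatches, 3 went from 17 mismatches to 4 when aligned with gaps, and 2 kept 6 each. The 122 reads that are also those of DNA-PKcs-/- replicate 5 gave 7 mismatched reads (5.74%, 2.81 to 11.4), and the 510 reads of run 397 gave 56 (11.0%, 8.55 to 14.0). The baits of run 397 were longer. Per base the rates were 15.9 per 10000 (8 of 5046, 8.04 to 31.3) and 29.8 (97 of 32558, 24.4 to 36.3). The sheet of the PQR/PQR pool, for IgH outside the S regions, held a single mismatch, G-to-A, in 40 reads (2.50%, 0.443 to 12.9).

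The AflII site was crossed by 22 of 706 ungapped reads of DNA-PKcs-/- replicate 5 (3.12%), by 12 of 1067 listed reads of PQR/PQR replicate 1 (1.12%) and by 1 of 445 of PQR/PQR replicate 2. In the DNA-PKcs-/- pool 107 of 628 reads crossed it (17.0%). The reads of PQR/PQR replicate 1 leave out Sμ junctions, and those of DNA-PKcs-/- replicate 5 include them. The sets of junctions thus differ, and the shares are not compared. The site was intact in all 22 reads of DNA-PKcs-/- replicate 5, in 10 of the 12 of PQR/PQR replicate 1, where C104G and G109T were found, and in 105 of the 107 of the pool, where C104T and A108G were found.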

How the data were processed

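The unit of analysis was the read. The deposited workbooks list, per read, whole-number counts of mismatched, inserted and deleted bait bases, and per sheet the sums of the 12 base changes, as the authors made them. Bowtie2 and mm9 are named in the submitters' processing notes, without versions or filters. Coordinates are those of the authors' files. Of the sheet lines 13 were emptied in the files used and were left out, and the sums still include them. The list of Sμ reads of PQR/PQR replicate 1 was not used.

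The bait sequence was taken as the majority base of listed reads at the primer site. Reads whose aligned bait and reference lengths differ were realigned with gaps. The deposited alignment positions of bait and prey are other values used to place reads. The caller was tested on simulated data. Shares were compared by two-sided Fisher's exact tests with Benjamini-Hochberg adjustment over 6 results, at a threshold of 0.05, with Wilson and Newcombe 95% intervals, in scipy 1.17.1 under Python 3.11.15. Read shares, mismatched bases and indels come from the lines, and the spectrum from the sums. A count of 0 allows up to 3 counts.

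The text names all base changes with strands joined, the 3 most frequent changes per sheet, the 3 reads with most mismatches per sheet, and each position mismatched in 3 or more reads. The members, lists and tests were chosen with earlier results of these data known. Alternatives left out reads with many mismatches, collapsed junctions, kept Sε and Sγ1, dropped the last 5 bases, used the sums and rates per base, and realigned reads.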

Additional observations from a re-analysis of the deposited data

Results flagged for a closer look

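In the DNA-PKcs-/- pool, 16 listed Sε reads had their bait aligned away from the primer site, all in the run numbered 397. None was found in the 3 single libraries, whose counts of 0 allow up to 0.277% to 0.668% of all listed reads. Of those listed reads only 122, 789 and 144 are of Sε, so these limits are not for Sε alone.

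PQR/PQR replicate 2 had 34 G-to-T mismatches among 78, in a sheet that no comparison used. Of the 21 in lines used here, 18 were in reads outside IgH. The 21 lay in 14 reads, and 6 were the only mismatch of their read.

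A7T, inside the nested primer and outside the counted bait, was found in 45 ungapped listed reads of the 3 single libraries. Gapped reads and the Sμ reads of PQR/PQR replicate 1 are not in this count.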

How the results depend on the processing

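Of 36 alternative values for the 6 compared shares, 27 kept the direction and the side of the threshold. The share of C:G mismatches passed the threshold when reads with 5 or more mismatches (-22.0 points) or 2 or more (-30.9 points) were left out. Direction turned in 7 values, none past the threshold: mismatched reads with junctions collapsed outside Sμ (-0.382 points); mismatched bases without reads of 5 or more (0.00412) or 2 or more mismatches (0.0260) and in Sε and Sγ1 (0.0128); insertions in Sε and Sγ1 (0.446), with realignment (0.0135) and with junctions collapsed outside Sμ (0.424). The cause was not tested. Realignment, the collapsed setting outside Sμ and the 12 base-change tests were chosen after seeing the data. A-to-G lost its call in Sε and Sγ1 alone (14.3 per 10000 more, adjusted Fisher's exact p = 0.0673), with fewer bases. Collapsing all reads, Sμ included, was not run for read shares, because the list of all Sμ reads of PQR/PQR replicate 1 was not used. A minimum of 30 bait bases was not run: the shortest listed bait of the compared libraries was 31. The 59 and 130 mismatches limit the precision of the spectrum. Settings that select reads take base changes from the realigned reads, not from the sums. No paired analysis was possible because the libraries compared share no replicate number.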
